A study of Sus scrofa with 9 samples.

Results

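The 49 genes described here encode the machinery of mitosis: the cyclins and kinases that start it, the kinetochore and spindle, the condensins that compact chromosomes, the factors that trigger anaphase and the proteins of cytokinesis. They were chosen by symbol from what their products are known to do, and earlier results of these data were known at the time. Each had 1 row among the 19535 gene rows of the table. All 49 were counted at 320 or more reads in every library and passed the filter on low counts, which left 13662 genes for testing.

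Porcine valvular interstitial cells (PVICs), the fibroblast-like cells that build and maintain the valve leaflet, came from the aortic valves of wild-type pigs aged 4 to 5 months. Valve endothelial cells had been scraped off before the tissue was digested. The control group was kept in Dulbecco's modified Eagle's medium (DMEM), the medium with serum in which the cells had been seeded. The OIM group was kept in osteogenic induction medium, to which insulin (1e-07 mol/L), ascorbic acid (50 µg/mL) and sodium dihydrogen phosphate (2 mmol/L) had been added. The bFGF group was kept in OIM with 50 ng/mL basic fibroblast growth factor, so the control group lacked both the osteogenic supplements and bFGF. The labels give 3 days of treatment, while the study's methods give a shorter time. Each group held 3 libraries, and neither source says whether they came from separate animals or cultures, so the p-values measure the spread between these libraries, which may be technical. There was no group with bFGF in plain DMEM.

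A cell that is to divide copies its DNA in S phase and then switches on a shared set of mitotic genes in G2. Their transcripts are low in resting cells because repressor complexes of the DREAM family occupy their promoters. They rise when the MuvB core of these complexes loses its repressor partners and binds B-MYB and FOXM1. Many of these promoters hold a cell-cycle homology region (CHR) near the transcription start and CCAAT boxes, to which the factor NF-Y binds. Growth factors such as bFGF act on receptor tyrosine kinases and can bring resting fibroblasts back into the cycle. In bulk RNA, more dividing cells and more transcript per dividing cell cannot be told apart.

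The promoter letters of these genes are shown first, because many of the genes share them and the choice of the genes did not use them. Each promoter window ran from 250 bases before to 50 bases after the annotated start in the assembly Sscrofa11.1 (RefSeq annotation), and both strands were searched. The CHR was searched as TTTGAA or TTCGAA, the CCAAT box as CCAAT, and E2F sites as TTCCCGC or TTGGCGC or as TTCGCGC or TTGCCGC. A letter match is a description and not a measured binding site. The windows below hold a CHR close to the start in genes from different steps of mitosis, with the CHR in capitals, written 5′ to 3′ on the strand of the gene, so that a CHR on the opposite strand reads TTCAAA. Positions count from the start, with the first transcribed base as 1 and the base before it as -1.
CDK1 (CHR at -27, chr14:64233906-64233935, plus strand): ctgattggatccTTTGAAagtctacgggct
CCNB2 (CHR at -4, chr1:112942205-112942234, minus strand): agcggcgcggtaTTTGAAtcctggaactaa
INCENP (CHR at -10, chr2:9445818-9445847, minus strand): cgaatcttcagtTTTGAAaatcgtagagtt
CENPA (CHR at 15, chr3:112272607-112272636, minus strand): ctggattcggttTTCAAAacacgccggcag
TOP2A (CHR at 7, chr12:22001294-22001323, plus strand): gctggctgaaggTTCAAAcggaggggcagc
MKI67 (CHR at -44, chr14:137296339-137296368, minus strand): cttagcgccaaaTTTGAAtcgaggttttca
MKI67 (CHR at -26, chr14:137296321-137296350, minus strand): tcgaggttttcaTTTGAAtcgggaaggcgc
UBE2C (CHR at -6, chr17:48018385-48018414, plus strand): ggagggttacaaTTCAAAcgcgggcgggcg

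The gene of CDK1, the kinase whose activity drives entry into mitosis, also had a second CHR at position 30. MKI67, which encodes the proliferation marker Ki-67, held 2 CHRs that began 18 bases apart. Of the 49 windows, 27 (55.1%) held a CHR, against 15.6% of the 19556 windows of protein-coding genes. In 21 of the 49 genes (42.9%) a CHR lay within 50 bases of the start, against 4.4% of all windows, a distance chosen after the positions had been seen. A CCAAT box was found in 37 of the 49 windows (75.5%, against 35.4% of all), both motifs in 20 (40.8%, against 6.14%) and an E2F motif in 17 (34.7%, against 13.6%).

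Of the 49 genes, 19 (38.8%) had more than 1 CCAAT box in the window, as did 2142 of all 19556 windows, and CCNB1 and CCNB2 were among the 19. They encode the B-type cyclins that activate CDK1 in mitosis, and their boxes are shown in capitals.
CCNB1 (CCAAT at -75, chr16:47338152-47338181, plus strand): aactggccgccgCCAATgggaagtgagcga
CCNB1 (CCAAT at -43, chr16:47338184-47338213, plus strand): gccacgaacaggCCAATaaggagggagcgg
CCNB2 (CCAAT at -95, chr1:112942296-112942325, minus strand): tggaaaattcagCCAATcatccttcgggaa
CCNB2 (CCAAT at -63, chr1:112942264-112942293, minus strand): cctcttgattagCCAATgggaggagcgcgc
CCNB2 (CCAAT at -30, chr1:112942231-112942260, minus strand): acgtagggccgcCCAATgggggcgcgagcg

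The windows of PLK4, ANLN, NCAPG, NCAPH and SMC2 held none of these letters, which says nothing of the factors that act there.

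**Figure D1:**
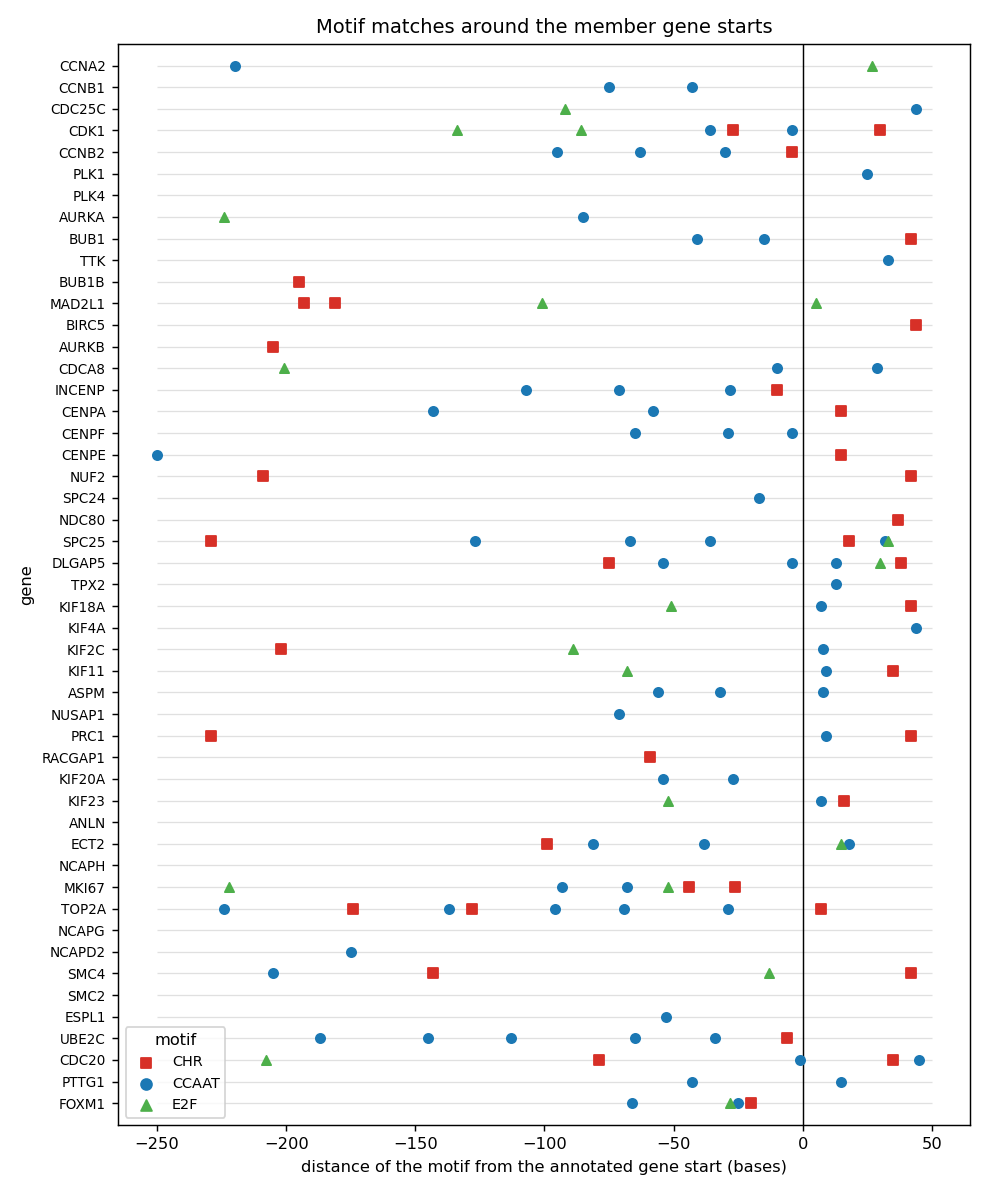
Positions of CHR (red squares), CCAAT (blue circles) and E2F (green triangles) matches in the promoter window of each of the 49 genes, with the distance from the annotated gene start in bases on the x axis and the genes in order of role on the y axis. A CHR is present in 27 genes, in 21 of them within 50 bases of the start, and 5 genes show no match.

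The depth was 57075793 to 64723837 gene counts in the control libraries, 57682710 to 67371523 in the OIM libraries and 46773376 to 48270827 in the bFGF libraries. Levels are given as CPM, the counts of a gene per 1000000 counts of the library, after TMM normalization, which removes differences in composition between libraries. OIM replicate 2 stood apart from the other OIM libraries in these genes, as described below, and the main counts and medians, the role medians, the shares within complexes and the named values of OIM against control are also given without it. The interstitial marker list summed to 65381 to 70794 CPM in control, 62047 to 64868 in OIM and 39105 to 39471 in bFGF. Of its 10 genes, COL1A1, COL1A2, COL3A1 and DCN were called lower in bFGF than in OIM, where 18.4% of all tested genes were. POSTN and VIM were called higher, where 17.7% of all tested genes were, and 4 were not called (median log2 fold change -0.23). The endothelial list summed to 73.9 to 76.7, 88.2 to 90.9 and 171 to 181 CPM in the same order, and 7 of its 10 genes were called higher in bFGF than in OIM, where 17.7% of all tested genes were. The leukocyte list summed to 12.99 to 16.4, 14.3 to 16.0 and 8.46 to 9.12 CPM, with CD3E and MS4A1 at 0. The cardiomyocyte list summed to 7.65 to 9.17, 10.99 to 13.9 and 6.55 to 8.47 CPM, with TNNT2, NPPA and MYL2 at 0. The bFGF libraries lay below all others in the summed interstitial and leukocyte lists, above all others in the endothelial list, and overlapped the control libraries in the cardiomyocyte list. The part of these lists in the results on these genes was not tested.

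All 49 mitotic genes were higher in bFGF than in OIM. Their summed level was 1608, 1566 and 1600 CPM in the control libraries, 1715, 2211 and 1706 in the OIM libraries, and 5676, 5593 and 5810 in the bFGF libraries. As a percentage of the TMM-scaled library size this was 0.157% to 0.161% in control, 0.171% to 0.221% in OIM and 0.559% to 0.581% in bFGF. These percentages are not shares of the raw counts. The bFGF libraries lay above all others with a wide gap. The control libraries lay below the OIM libraries in this sum, and within OIM replicate 2 was the highest.

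**Figure D2:**
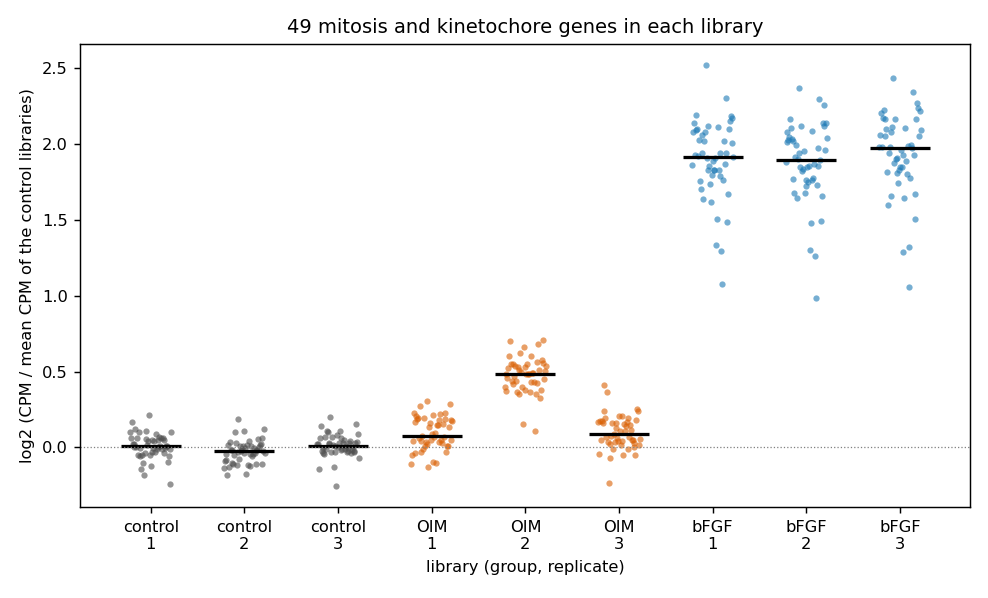
Level of each of the 49 genes in each of the 9 libraries, as log2 of its CPM over the mean CPM of the control libraries (y axis), with 1 point per gene and a black bar at the median. The bFGF medians lie between 1.89 and 1.97, OIM replicate 2 lies at 0.48, and OIM replicates 1 and 3 lie at 0.07 and 0.09.

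The first question was how bFGF changed the mitotic genes in cells that already received OIM. A gene was called when its adjusted p was at most 0.05 and its log2 fold change at least 0.5 in size, in the quasi-likelihood test of edgeR, adjusted by Benjamini-Hochberg over the 13662 genes. All 49 genes were called higher and 0 lower, where 17.7% of all tested genes were called higher. In all 49 every bFGF library lay above every OIM library, which was so for 36.3% of all tested genes. The median log2 fold change was 1.70 (3.24-fold), beside -0.0029 for all tested genes, and the values ran from 0.99 in ECT2 to 2.20 in CENPA. The change was at least 3-fold in 38 genes, and 40 genes lay between 1.5 and 2 on the log2 scale. Without OIM replicate 2 the median was 1.86 and all 49 were still called. Scaling by library totals alone also left all 49 called, though it shifted all genes upward and split the calls over all genes into 3733 higher and 1694 lower, in place of 2420 and 2519.

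The 49 genes rose by similar but not equal amounts. The 95% interval of 6 genes lay wholly above the median of the 49 (CCNA2, CCNB1, CENPA, NCAPH, MKI67 and ESPL1), and that of 9 lay wholly below it (MAD2L1, INCENP, SPC25, NUSAP1, ASPM, ANLN, ECT2, SMC2 and SMC4). These counts were 10 and 14 without OIM replicate 2, whose leaving out added PLK1, AURKB, BIRC5 and CDC20 to the genes above. The count above was 3 without bFGF replicate 1 or 3, where CCNA2, CENPA and NCAPH remained, and 4 without OIM replicate 3. By role, the median log2 fold change was 1.86 in the entry cyclins with CDK1, 1.83 in the anaphase genes, 1.82 in the chromosomal passenger complex, 1.72 in the mitotic kinases and 1.70 in the centromere and kinetochore genes. It was 1.69 in the condensins and chromosome structure genes, 1.66 in the spindle checkpoint, 1.59 in the spindle motors and 1.57 in the cytokinesis genes. Without OIM replicate 2 the role medians ran from 1.72 in the cytokinesis genes to 2.05 in the entry cyclins with CDK1.

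**Figure D3:**
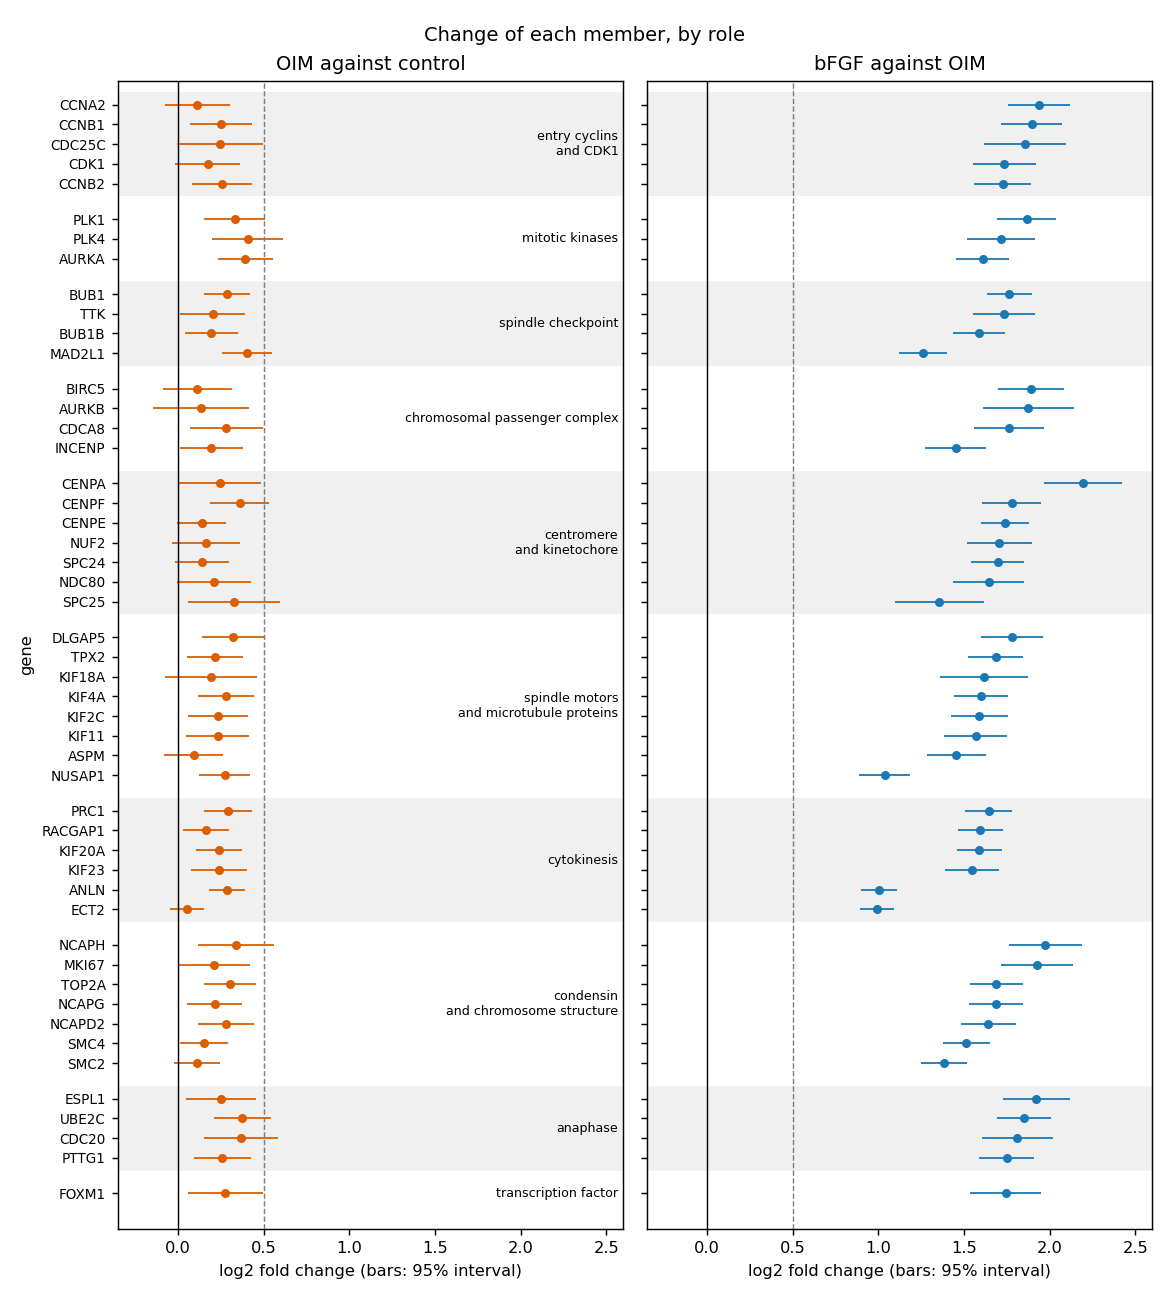
Log2 fold change of each of the 49 genes with its 95% interval, for OIM against control (left, orange) and bFGF against OIM (right, blue), grouped by role, with the fold limit of 0.5 as a dashed line. All points on the right lie at 0.99 or above, and all points on the left lie between 0.05 and 0.41.

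Entry into mitosis is driven by CDK1 bound to cyclin A or cyclin B, after the phosphatase CDC25C has removed the inhibitory phosphates from CDK1. CDK1 stood at 21.8, 18.5 and 20.5 CPM in the control libraries, 18.8, 26.7 and 22.8 in the OIM libraries and 73.7, 74.4 and 79.8 in the bFGF libraries. CCNA2, the cyclin A of S phase and early mitosis, stood at 15.0, 13.5 and 14.6 CPM in the control libraries, 13.9, 18.6 and 14.0 in the OIM libraries and 60.7, 58.0 and 59.8 in the bFGF libraries. CCNB1 stood at 39.9, 34.4 and 32.2 CPM in the control libraries, 36.5, 49.6 and 40.0 in the OIM libraries and 156, 149.5 and 164 in the bFGF libraries. In all of them the bFGF libraries lay far above the rest, while control and OIM libraries overlapped. The log2 fold change against OIM was 1.94 ± 0.09 (SE) in CCNA2, the largest of this group, 1.89 ± 0.08 in CCNB1 and 1.74 ± 0.09 in CDK1 (edgeR adjusted p = 1.16e-13, 9.98e-14 and 7.79e-13). CCNB2, with the smallest change of the group at 1.72 ± 0.08, stood at 15.1, 14.1 and 15.6 CPM in the control libraries, 17.5, 20.5 and 15.4 in the OIM libraries and 56.8, 60.8 and 59.0 in the bFGF libraries. CDC25C rose by a log2 fold change of 1.86 ± 0.11. Per kilobase of exon, CCNB1 was the most abundant of CDK1 and its cyclins in each group, with 76.5 ± 3.49 CPM per kb (SD, n = 3) in bFGF, ahead of CCNA2 at 36.7 ± 0.87 and CCNB2 at 28.8 ± 0.999. CDK1 itself came last at 9.91 ± 0.43 CPM per kb, over 7666 annotated exon bases.

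The mitotic kinases act on centrosomes and the spindle. PLK1, which promotes entry, spindle assembly and cytokinesis, stood at 18.9, 19.1 and 18.6 CPM in the control libraries, 21.2, 28.6 and 21.1 in the OIM libraries and 86.1, 84.7 and 88.3 in the bFGF libraries. PLK4, the kinase that starts centriole duplication, stood at 18.8, 15.8 and 17.2 CPM in the control libraries, 19.9, 28.1 and 20.4 in the OIM libraries and 73.8, 74.3 and 77.3 in the bFGF libraries. AURKA, the aurora kinase of the spindle poles, stood at 15.2, 15.5 and 14.7 CPM in the control libraries, 17.2, 22.1 and 20.1 in the OIM libraries and 57.1, 61.7 and 62.7 in the bFGF libraries. In these 3 genes the lowest OIM library exceeded the highest control library, which was so for 14.5% of all tested genes. None of the 3 was called in OIM against control. The lowest bFGF library exceeded every library of both other groups. The log2 fold change of bFGF against OIM was 1.87 ± 0.08 in PLK1, 1.72 ± 0.09 in PLK4 and 1.61 ± 0.07 in AURKA (SE, edgeR adjusted p = 8.91e-14, 2.64e-12 and 1.69e-13).

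The spindle checkpoint holds back anaphase until every chromosome is attached. BUB1, a kinase that recruits checkpoint proteins to kinetochores, stood at 21.4, 20.3 and 19.9 CPM in the control libraries, 23.5, 27.8 and 23.5 in the OIM libraries and 83.4, 83.1 and 87.5 in the bFGF libraries, and its adjusted p against OIM (edgeR, 2.92e-15) was the lowest of the 49. MAD2L1, the MAD2 protein that blocks CDC20, stood at 22.2, 19.3 and 20.5 CPM in the control libraries, 25.04, 30.2 and 26.6 in the OIM libraries and 67.4, 66.2 and 62.6 in the bFGF libraries. TTK, the MPS1 kinase at the head of the checkpoint, stood at 19.8, 18.4 and 21.4 CPM in the control libraries, 20.4, 27.5 and 20.4 in the OIM libraries and 76.2, 74.96 and 76.4 in the bFGF libraries. MAD2L1 stood out in this group by its small response to bFGF, with a log2 fold change of 1.26 ± 0.07 (95% interval 1.12 to 1.40), against 1.76 ± 0.06 in BUB1, 1.73 ± 0.09 in TTK and 1.59 ± 0.07 in BUB1B. The intervals of the other checkpoint genes did not reach that of MAD2L1. In OIM against control, MAD2L1 had at 0.40 one of the larger differences of the 49, and 0.32 without OIM replicate 2.

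The chromosomal passenger complex corrects faulty attachments at the centromere and later acts at the spindle midzone. AURKB, its kinase, stood at 8.13, 8.18 and 9.07 CPM in the control libraries, 8.28, 12.3 and 7.18 in the OIM libraries and 35.2, 33.6 and 33.4 in the bFGF libraries. BIRC5, which encodes survivin, stood at 9.93, 10.49 and 10.48 CPM in the control libraries, 10.2, 13.2 and 9.82 in the OIM libraries and 41.7, 38.5 and 43.5 in the bFGF libraries. INCENP, the scaffold of the complex, stood at 17.8, 21.1 and 20.1 CPM in the control libraries, 20.7, 26.7 and 20.0 in the OIM libraries and 61.2, 61.3 and 62.0 in the bFGF libraries. INCENP changed least, by 1.45 ± 0.08 on the log2 scale, against 1.89 ± 0.09 in BIRC5, 1.88 ± 0.13 in AURKB and 1.76 ± 0.10 in CDCA8, which encodes borealin. Its share of the summed CPM per kb of the complex was 20.5% in control, 20.6% in OIM and 16.6% in bFGF, while that of BIRC5 was 37.0%, 35.1% and 38.3%. The OIM shares without replicate 2 were 20.8% for INCENP and 35.3% for BIRC5. AURKB had the widest interval of the 49 (1.61 to 2.14) and was the least abundant of the complex per kilobase in each group.

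At the centromere, CENPA, the histone H3 variant that marks where the kinetochore forms, had the largest change of the 49. CENPA stood at 5.87, 7.61 and 6.55 CPM in the control libraries, 6.72, 9.49 and 7.46 in the OIM libraries and 38.3, 34.4 and 36.1 in the bFGF libraries. Its log2 fold change was 2.20 ± 0.11 against OIM (SE, edgeR adjusted p = 5.04e-13), with a 95% interval of 1.97 to 2.42 that lay above the median of the 49. CENPF, a large kinetochore protein, stood at 85.0, 77.7 and 82.9 CPM in the control libraries, 101, 126 and 87.0 in the OIM libraries and 356, 356 and 367 in the bFGF libraries and changed by 1.78 ± 0.08 on the log2 scale. SPC25, a subunit of the NDC80 complex that grips microtubules, stood at 11.4, 9.95 and 8.29 CPM in the control libraries, 11.07, 15.7 and 10.3 in the OIM libraries and 30.4, 31.6 and 33.0 in the bFGF libraries and changed by 1.35 ± 0.12, the smallest change of this group. The kinetochore motor CENPE changed by 1.74 ± 0.07.

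The proportions of the 4 subunits of the NDC80 complex were also compared. Of their summed CPM per kb, SPC24 made up 50.6% in control, 49.5% in OIM and 50.7% in bFGF, NUF2 23.0%, 22.8% and 23.6%, NDC80 18.3%, 18.7% and 18.5%, and SPC25 8.04%, 8.92% and 7.23%. Without OIM replicate 2 the OIM shares were 52.19%, 22.03%, 17.60% and 8.19%. The subunits are known to assemble in equal numbers, but transcript levels per kilobase depend on the annotated exon length and are not protein amounts.

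Spindle motors and microtubule proteins build and move the spindle. TPX2, which activates AURKA and nucleates microtubules, stood at 54.0, 54.7 and 53.5 CPM in the control libraries, 56.6, 75.6 and 55.6 in the OIM libraries and 203, 195 and 206 in the bFGF libraries. DLGAP5, which stabilizes kinetochore fibers, stood at 32.3, 27.9 and 30.9 CPM in the control libraries, 33.5, 46.1 and 33.8 in the OIM libraries and 131, 129 and 130.5 in the bFGF libraries. NUSAP1, which bundles spindle microtubules, stood at 48.1, 43.1 and 48.8 CPM in the control libraries, 49.8, 65.1 and 53.9 in the OIM libraries and 117, 115 and 114 in the bFGF libraries. All 8 genes of this group were called higher in bFGF than in OIM, but NUSAP1 rose by only 1.04 ± 0.07 on the log2 scale (95% interval 0.89 to 1.18), against 1.78 ± 0.09 in DLGAP5 and 1.68 ± 0.08 in TPX2. ASPM, a protein of the spindle poles, changed by 1.45 ± 0.08, and the motors KIF11, KIF2C, KIF4A and KIF18A by 1.57 ± 0.09, 1.59 ± 0.08, 1.60 ± 0.07 and 1.61 ± 0.12. The exons of NUSAP1 share 1150 bases with NDUFAF1 and OIP5 on the opposite strand. Whether strand was used in counting is not given in the sources used here, so reads of these genes may not have been told apart.

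Cytokinesis, the last step of division, had the smallest median change of the roles. ECT2, the exchange factor that activates RhoA at the cell equator, stood at 42.2, 41.8 and 41.8 CPM in the control libraries, 43.4, 45.2 and 41.6 in the OIM libraries and 88.6, 82.9 and 87.4 in the bFGF libraries. RACGAP1, which binds ECT2 and forms the centralspindlin complex with KIF23, stood at 44.8, 41.9 and 42.3 CPM in the control libraries, 43.9, 54.9 and 45.1 in the OIM libraries and 146, 142 and 147 in the bFGF libraries. PRC1, which crosslinks the microtubules of the midzone, stood at 39.6, 36.8 and 38.7 CPM in the control libraries, 43.4, 53.8 and 43.1 in the OIM libraries and 147, 140.3 and 152 in the bFGF libraries. ECT2 rose by 0.99 ± 0.05 against OIM (SE, edgeR adjusted p = 2.29e-13), the smallest change of the 49, while PRC1 rose by 1.65 ± 0.07 and RACGAP1 by 1.60 ± 0.06. ANLN, the anillin of the contractile ring, rose by 1.01 ± 0.05, close to ECT2, while KIF20A and KIF23, the motors of the midzone, rose by 1.59 ± 0.06 and 1.55 ± 0.08. ECT2 and ANLN thus lay together well below the other cytokinesis genes, whose intervals did not reach theirs. The exons of KIF20A share 1462 bases with CDC23 on the opposite strand.

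Condensin I folds chromosomes into rods, and topoisomerase II untangles them. TOP2A, the topoisomerase of dividing cells, stood at 104, 104 and 107 CPM in the control libraries, 117, 155 and 117 in the OIM libraries and 426, 412 and 418 in the bFGF libraries. MKI67 stood at 88.9, 89.8 and 86.4 CPM in the control libraries, 89.1, 131 and 85.2 in the OIM libraries and 378, 389 and 395 in the bFGF libraries. NCAPH, the kleisin subunit that closes the condensin ring, stood at 15.8, 15.1 and 14.8 CPM in the control libraries, 17.3, 24.4 and 15.8 in the OIM libraries and 75.2, 74.6 and 77.1 in the bFGF libraries. SMC2, one of its ATPase arms, stood at 62.0, 62.2 and 62.1 CPM in the control libraries, 60.9, 77.6 and 62.2 in the OIM libraries and 174, 174 and 176 in the bFGF libraries. The bFGF libraries were the highest in all 4 genes, and in the OIM group replicate 2 was the highest. NCAPH rose by 1.97 ± 0.10 on the log2 scale (95% interval 1.76 to 2.19), MKI67 by 1.92 ± 0.10 and TOP2A by 1.69 ± 0.07, whereas SMC2 rose by 1.38 ± 0.06 (1.25 to 1.52).

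Within condensin I the share of NCAPH was higher in bFGF and those of the SMC subunits were lower. Of the summed CPM per kb of its 5 subunits, NCAPH made up 15.5% in control, 17.1% in OIM and 21.9% in bFGF, while SMC2 made up 29.7%, 28.0% and 23.9% and SMC4 26.3%, 25.5% and 23.8%. NCAPD2 made up 14.3%, 15.1% and 15.4% and NCAPG 14.2%, 14.3% and 15.1%. Without OIM replicate 2 the OIM share was 16.2% for NCAPH, 28.4% for SMC2, 25.7% for SMC4, 15.2% for NCAPD2 and 14.5% for NCAPG. The differences in share were not tested. SMC2 and SMC4 are also subunits of condensin II. The exons of SMC4 share 2084 bases with TRIM59 on the opposite strand.

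Anaphase starts when CDC20 activates the anaphase-promoting complex (APC/C), which has securin destroyed and so frees separase. UBE2C, the ubiquitin-conjugating enzyme of the APC/C, stood at 15.9, 15.3 and 18.3 CPM in the control libraries, 20.1, 24.2 and 19.7 in the OIM libraries and 74.9, 78.7 and 77.9 in the bFGF libraries. PTTG1, which encodes securin, stood at 14.0, 13.8 and 14.4 CPM in the control libraries, 14.5, 19.2 and 16.6 in the OIM libraries and 56.4, 54.7 and 58.4 in the bFGF libraries. ESPL1, which encodes separase, stood at 19.6, 25.1 and 24.6 CPM in the control libraries, 26.2, 32.8 and 23.4 in the OIM libraries and 104, 102 and 107 in the bFGF libraries. ESPL1 rose by 1.92 ± 0.09 on the log2 scale, UBE2C by 1.85 ± 0.08, CDC20 by 1.81 ± 0.10 and PTTG1 by 1.75 ± 0.08 (SE, edgeR adjusted p = 4.07e-13, 2.58e-14, 2.70e-12 and 8.85e-14). Securin and the separase it inhibits thus rose together.

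FOXM1 is the transcription factor that activates many of the other genes in G2 and mitosis. FOXM1 stood at 9.41, 8.53 and 8.34 CPM in the control libraries, 9.87, 12.7 and 9.12 in the OIM libraries and 33.0, 36.1 and 37.2 in the bFGF libraries. Its log2 fold change was 1.74 ± 0.10 against OIM and 0.27 ± 0.10 in OIM against control (edgeR adjusted p = 4.31e-12 and 0.0923). The latter was 0.12 without OIM replicate 2.

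Split by the promoter letters, the genes had similar medians. The median log2 fold change was 1.69 in the 27 genes with a CHR and 1.71 in the 22 without. It was 1.72 in the 37 genes with a CCAAT box and 1.66 in the 12 without, and 1.61 in the 17 with an E2F motif and 1.70 in the 32 without. Exon overlap was compared in the same way. In 14 of the 49 genes some exon bases were shared with another gene, and their median was 1.63, against 1.72 in the 35 others.

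The second question was what OIM alone did to the mitotic genes. Against control, 0 of the 49 genes were called in either direction by edgeR, where 1.49% of all tested genes were called higher and 2.35% in either direction, and DESeq2 also called 0. At an unadjusted p of at most 0.05, 35 genes were higher by edgeR, where 14.2% of all tested genes were, and 16 had such a p in either direction without OIM replicate 2. The log2 fold change was above 0 in all 49 genes under each scaling tried, where 49.6% of all tested genes were above 0, but it was small, with a median of 0.24 (1.18-fold) and a range from 0.05 in ECT2 to 0.41 in PLK4. With no limit on the fold change, 20 genes had an adjusted p of at most 0.05 and were higher, where 7.69% of all tested genes were. In 21 genes the lowest OIM library exceeded the highest control library, which was so for 14.5% of all tested genes. Without OIM replicate 2 this held for 21 genes and 20.3% of all tested genes. For 39 genes the 95% interval ended below the fold limit of 0.5, and for 26 to 49 with libraries left out in turn.

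The largest of these differences were 0.41 ± 0.10 in PLK4 (95% interval 0.20 to 0.61), 0.40 ± 0.07 in MAD2L1, 0.39 ± 0.08 in AURKA, 0.37 ± 0.08 in UBE2C and 0.37 ± 0.10 in CDC20, with edgeR adjusted p-values of 0.00834, 5.50e-04, 0.00165, 0.00284 and 0.0207. In MKI67 the difference was 0.21 ± 0.10 (edgeR adjusted p = 0.194), in CDK1 0.17 ± 0.09 (0.247) and in CCNB1 0.25 ± 0.09 (0.0651). None of these passed the fold limit. The values and their order rest in part on OIM replicate 2. Without it MAD2L1 was the largest at 0.32, followed by AURKA at 0.30 and UBE2C at 0.27, while PLK4 was at 0.22 and CDC20 at 0.16 (edgeR adjusted p = 0.0775). CCNB1 was then at 0.11, CDK1 at 0.04 and ECT2 at 0.02.

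A single library stood apart within the OIM group. OIM replicate 2 was the highest of the OIM libraries in all 49 genes, where it was the highest in 36.1% of all tested genes. In all 49 it lay above every control library too, and both held in 2660 of the 13662 tested genes. The level of OIM replicate 2 was 1.31 times the mean of the other OIM libraries at the median, with a range from 1.02 to 1.59, beside 0.999 for all tested genes. It was also the highest in 33 of 34 DNA replication genes (median ratio 1.30) and in all 18 other spindle and cytokinesis genes (1.30), but in only 6 of 16 genes of the APC/C and mitotic exit (1.01). The coefficient of variation of the 49 genes was larger in OIM (median 16.9%) than in control (4.56%) or bFGF (2.90%), while it was 5.21% to 6.22% over all tested genes in the same groups. OIM replicate 2 was also the most deeply sequenced library, with 67371523 gene counts, and the part of depth in this pattern was not tested beyond thinning all libraries to the smallest total, after which the median difference from control was 0.23.

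Without OIM replicate 2, 42 of the 49 genes remained above control, with a median log2 fold change of 0.11 and a range from -0.13 to 0.32. ASPM, AURKB, BIRC5, CCNA2, KIF18A, MKI67 and SMC2 were then at or below 0, with MKI67 at -0.018. The genes with an adjusted p of at most 0.05 at any fold numbered 9 in place of 20 (ANLN, AURKA, BUB1, CENPF, MAD2L1, PLK4, PRC1, TOP2A and UBE2C), all of them among the 20. This count was also 11 without control replicate 2 and 13 without control replicate 1. Over all libraries left out in turn it ran from 9 to 29.

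**Figure D4:**
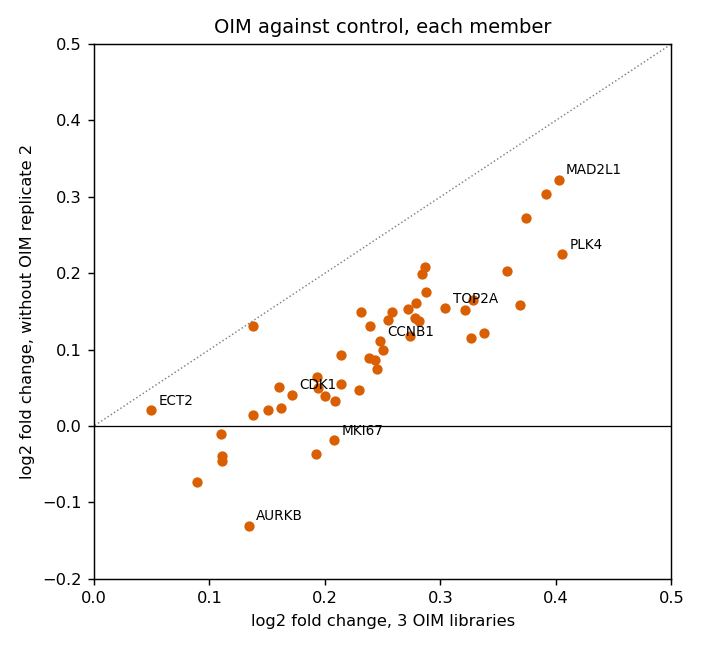
Log2 fold change of OIM against control for each of the 49 genes with all 3 OIM libraries (x axis) and without OIM replicate 2 (y axis), with the line of equal values dotted. Points lie below the dotted line, the median falls from 0.24 to 0.11, and 7 genes, MKI67 and AURKB among them, lie below 0.

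Against the control group, bFGF with OIM gave the same 49 genes higher, where 18.9% of all tested genes were called higher, and in all 49 every bFGF library lay above every control library (36.4% of all). The median log2 fold change was 1.92 (3.78-fold) and the range 1.04 to 2.44. The largest were 2.44 ± 0.11 in CENPA, 2.31 ± 0.10 in NCAPH, 2.23 ± 0.08 in UBE2C and 2.19 ± 0.08 in PLK1, and the smallest was 1.04 ± 0.05 in ECT2. This comparison shares its bFGF libraries with the one against OIM, so the counts are not independent of each other.

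Other cell-cycle genes were counted from 8 lists to show where the change reached, with 158 genes tested. Together 121 were called higher in bFGF than in OIM and 4 lower, where 17.7% and 18.4% of all tested genes were. The lists had been written with earlier results of these data known, and PDS5A, ANAPC2, CDC25A, MCM5, CDK6 and CDKN2A were not analysed here.

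Most genes close to the 49 in role were called higher as well. Of the other spindle and cytokinesis genes, 18 of 18 were called higher (median log2 fold change 1.73), with SPAG5, the astrin protein of the spindle, at 2.16 and the motor KIF15 at 2.02. Of the other kinetochore and checkpoint genes, 30 of 33 were called higher (median 1.35). ZWINT, a kinetochore protein, was at 2.45 and HJURP, the chaperone that loads CENPA, at 2.43, while CENPC at 0.40, MIS12 at -0.21 and ZW10 at -0.07 were not called. Of the list written for CDK1 activation, 7 of 9 were called higher (median 1.45), while ENSA and ARPP19 were not called. CCNF, whose product cyclin F does not itself activate CDK1, was at 2.55, and the inhibitory kinase PKMYT1 was at 2.23. Of the DNA replication genes, 34 of 34 were called higher (median 1.66), with MCM3, a subunit of the replicative helicase, at 2.25 and the origin protein ORC1 at 2.19.

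The medians were lower in the lists of cohesin and APC/C subunits, many of which also serve cells outside mitosis. In the condensin and cohesin list 7 of 12 were called higher (median 0.63). CDCA5, which encodes sororin, was at 1.82 and the condensin II subunit NCAPG2 at 1.55, while the cohesin genes SMC1A, SMC3 and RAD21 were at 0.91, 0.66 and 0.61. STAG1, STAG2, WAPL, PDS5B and NIPBL lay between -0.09 and 0.12 and were not called. In the APC/C list 7 of 16 were called higher (median 0.37), led by FBXO5, the inhibitor EMI1, at 1.82 and the ubiquitin-conjugating enzyme UBE2S at 1.37. The other 5 were core subunits, with CDC23 at 0.92, ANAPC1 at 0.89, ANAPC7 and CDC27 at 0.58 and ANAPC5 at 0.51. Other core subunits such as ANAPC10 (-0.02), ANAPC11 (0.06) and CDC26 (-0.04) were not called.

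Of the factors that control these promoters, 11 of 23 were called higher (median 0.47). E2F8, a repressor, was at 2.14, the activator E2F1 at 1.95 and MYBL2, which encodes B-MYB, at 1.94. Of the parts of the repressor complexes and their relatives, LIN9 at 1.54, RBL1 at 1.44, E2F5 at 1.43, TFDP1 at 0.82 and E2F4 at 0.70 were called higher, while LIN37 (-0.02), LIN52 (0.15) and RB1 (0.00) were not called. RBL2 at -0.37 was not called against OIM either, but it was called lower in bFGF than in control. LIN54 at 0.47 and RBBP4 at 0.33 were below the fold limit, with edgeR adjusted p-values of 3.65e-07 and 2.43e-07. Of the NF-Y subunits, NFYA at 0.50 was called higher, and NFYB (0.17) and NFYC (-0.01) were not called. The list of G1 cyclins and CDK inhibitors was the one with genes in both directions. It had 7 of 13 higher, among them CCNE1 at 1.63, CCND1 at 1.51 and the CDK inhibitor genes CDKN2B at 1.27 and CDKN2C at 0.94, and 4 lower, with CDKN1B, which encodes p27, at -1.14, CDKN1C, which encodes p57, at -1.11, CCND3 at -1.02 and CDKN1A, which encodes p21, at -0.74. In OIM against control, 8 of the 158 genes were called higher (CCND1, CDKN2B, CDT1, E2F1, E2F5, KIF18B, MCM3 and SKA1) and 0 lower, where 1.49% of all tested genes were called higher. That count was 1 without OIM replicate 2, 16 without OIM replicate 1 and 14 without OIM replicate 3.

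**Figure D5:**
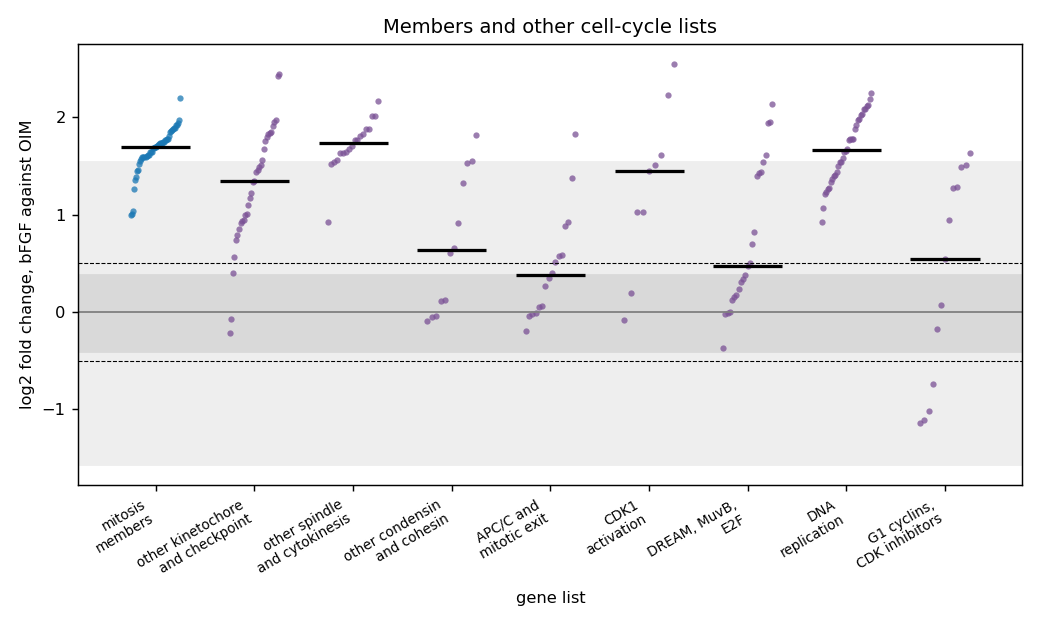
Log2 fold change of bFGF against OIM (y axis) for the 49 genes (blue) and 8 other cell-cycle lists (purple), with 1 point per gene and a black bar at each median. The dark and light bands hold the middle 50% and 90% of all tested genes and the dashed lines mark the fold limit. The medians run from 0.37 in the APC/C list to 1.73 in the other spindle list, beside 1.70 for the 49 genes.

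Circular RNAs (circRNAs), which form by back-splicing, were listed for 16 of the 49 genes. There were 35 of them, 34 with both ends at annotated exon boundaries of the host gene, and 29 had counts in a single library. KIF11 had 7 and ANLN had 5. Their summed junction counts were 18, 20 and 13 in the control libraries, 23, 26 and 22 in the OIM libraries and 20, 10 and 12 in the bFGF libraries, while all listed circRNAs together summed to 8051 to 10029 in the control and OIM libraries and 6048 to 6394 in the bFGF libraries. The bFGF libraries thus did not hold more junction counts from these genes, although their linear counts were higher. The most widely seen was in TPX2 (chr17:35461000-35469692), with 3, 4 and 0 counts in control, 0, 4 and 3 in OIM and 4, 4 and 3 in bFGF. The lowest count above 0 in the table was 2, so a 0 may stand for a low count that was left out, and no difference was tested at this depth.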

How the data were processed

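RNA from PVICs in 3 groups (control, OIM and OIM with bFGF) was sequenced in 3 libraries per group, with group and replicate number as labelled. The authors deposited 1 table that was not normalized, with whole-number counts for 19535 gene rows, estimated counts for 9888 non-coding rows (44.6% of values not whole, not used here) and junction counts for 6179 circRNAs. Per the labels, reads were trimmed with Trimmomatic and handled with HISAT2 and StringTie on Sscrofa11.1, from total RNA depleted of ribosomal RNA with a stranded kit. The study's methods name Cutadapt, STAR and poly-A selection instead. The counting program and its use of strand are not given in the sources used here. The 19 unnamed columns hold no values, and 33 date-like symbols were kept and are not named.

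Low genes were removed with filterByExpr and the rest tested, after TMM normalization, with edgeR 4.0.16 (quasi-likelihood, R 4.3.3) on 9 libraries in 3 groups (6 residual degrees of freedom). P-values were adjusted by Benjamini-Hochberg over 13662 genes. The standard error is the size of the log2 fold change over the square root of F, and intervals are 95%. The common biological coefficient of variation was 0.0602. Libraries of a group differed by a mean chi-square per gene of 4.66 to 18.9, so none was counted as a repeat. On simulated counts for bFGF against OIM (13492 genes, 200 changed by 1 on the log2 scale), 183 were recovered (91.5%) with 2 false calls. Every simulated gene had the common coefficient of variation, with no library effect such as that of OIM replicate 2. The number of false calls therefore need not hold for these data.

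The genes and all lists were chosen with earlier results of these data known. Named in full were, by role, the 2 genes with the largest and the 1 with the smallest change in bFGF against OIM, with CDK1, CCNB1, TOP2A, MKI67 and FOXM1 in any case, and from each other list the 2 called genes with the largest change in each direction. Other genes were named after their values were seen. CPM per kb divides by the annotated exon bases. Alternatives were other filters and fold limits, DESeq2 1.42.0, scaling by library totals alone or by median-of-ratios size factors, fits on the 2 groups compared, a replicate block, leaving out each library and, chosen after seeing the data, libraries thinned to the smallest total. Markers were listed for other cell types, of which MYH6 was not analysed here.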

Additional observations from a re-analysis of the deposited data

How the results depend on the processing

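In bFGF against OIM and against control, all 49 mitotic genes were called higher under each alternative run except a fold limit of 1 against OIM, where ECT2 (0.99) was not. Over all results, 491 recomputed counts and medians stayed close to the reported ones (a count within 1.5 times) and 16 did not. Of the recomputed values of single genes that were tallied, 1629 kept their direction and side of the threshold, 1 changed sign (MKI67), 3 passed the threshold only in the alternative and 1 only as reported. The 6 other genes at or below 0 in OIM against control without OIM replicate 2 are not in this tally. CCNA2, AURKB, BIRC5 and SMC2 are among them, although the rule named these genes. With library totals alone the median log2 fold change of the 49 genes was 1.92 against OIM and 2.14 against control, in place of 1.70 and 1.92, while the median of all genes moved by 0.22 in both. With no fold limit, 20 of the 49 were higher in OIM than in control. So were 44 of the 158 other genes, with 2 lower, where 7.69% of all tested genes were higher. In bFGF against OIM, that limit gave 17 regulators higher and 1 lower, and 1 gene lower in each of the kinetochore, cohesin and APC/C lists. With a fold limit of 1 on the log2 scale, 4 condensin and cohesin genes and 2 APC/C genes were higher in bFGF than in OIM and 0 other genes in OIM than in control. Leaving out libraries gave 1 to 16 other genes higher in OIM than in control, and MKI67, at 0.21, ran from -0.018 (without OIM replicate 2) to 0.32. The cause of the single-library effects was not tested.

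Samples with the same replicate number did not deviate together (correlations of -0.032 to 0.0035), so no pairing by number was seen. This cannot show whether the libraries share an animal or a culture. With a replicate block, 49, 49 and 0 of the mitotic genes were called, with medians of 1.70, 1.92 and 0.24 for bFGF against OIM, bFGF against control and OIM against control. Gene counts of the 49 genes were 320 or more, while circRNA counts were low, and the part of depth in that was not tested.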
